A study of Mus musculus with 2 samples.

Results

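To see how pure the Th1 skewing was at the level of RNA, 10 genes that mark other helper T cell lineages were followed in Th1 cultures of both genotypes. The genes were listed by symbol, with earlier results of these data known, by a rule that uses no measured value. They are the Th2 cytokines Il4, Il5 and Il13, the Th9 cytokine Il9, the Th17 cytokines Il17a, Il17f and Il22, the Th2-associated receptors Il1rl1 and Il17rb, and the Th17-associated receptor Il23r. All 10 members were found among the 24421 genes listed, 6 of them above 0 in the library labelled WT and 7 in the library labelled Chi3l1 KO, while 3 were at 0 in both. A count of at least 10 reads in at least 1 library was reached by 5 members.

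Naïve CD4 T cells from 6- to 8-week-old mice on the C57BL/6J background were stimulated through antibodies to CD3 and CD28 fixed to the plate and skewed with IL-12, IL-2 and a neutralizing antibody against IL-4, in both genotypes. One culture was from Chi3l1+/+ mice and the other from Chi3l1-/- mice, a line described as lacking chitinase 3-like 1 in all cells. Each genotype has 1 library (n = 1), so that no difference below has a replicate check and no test between genotypes was possible. The study isolated naïve CD4 T cells on beads as CD4+CD25-CD62L+ cells, or by cell sorting for low CD44 as well, and which of these came before sequencing was not stated. Both steps select against other lineages and against regulatory T cells that carry CD25. The number of mice behind a library and the day of harvest were not given for the sequencing. The cells were bulk cultures, in which fewer cells of a type and less RNA per cell cannot be told apart.

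Naïve CD4 T cells take on different helper fates according to the cytokines around them. IL-12 acting through STAT4, together with IFNγ, induces T-bet and the Th1 fate. IL-4 acting through STAT6 induces GATA3 and the Th2 fate, with IL-4, IL-5 and IL-13 encoded in one gene cluster. TGF-β together with IL-4 gives IL-9-producing cells. IL-6 and TGF-β induce the Th17 fate, which IL-23 sustains. Th1 conditions block the Th2 fate by T-bet and, here, by the antibody against IL-4.

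The library labelled WT held 70550077 reads and the library labelled Chi3l1 KO 62889973 reads, as rebuilt from the deposited log2 values. The deposited values resolve single reads, since 1 read of Il4 in the library labelled WT gave a log2 value of 0.94. A gene at 0 therefore had no read counted, and the Poisson interval of its expected count reaches 3.69 reads. A floor of 3 reads was set, and no ratio of reads is given where both libraries are at or under it. The targeted gene Chi3l1, listed as Chil1, had 1 read in the library labelled WT and 103 reads in the library labelled Chi3l1 KO, which goes against the labels. There is 1 value for each gene, which does not show whether these reads lie in the part that was deleted. The libraries are therefore called WT-labelled and KO-labelled, and each direction given here rests on these labels. The 10 CD4 T cell markers, among them Cd3e and Cd4, were present in both libraries with differences within 2-fold. Ifng, the defining Th1 cytokine, had 3478 reads in the WT-labelled and 8719 reads in the KO-labelled library. Tbx21, which encodes T-bet, had 16653 and 13882 reads. Counts above 100 reads are approximate, because the deposited log2 values have 3 decimals.

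The promoters of 5 members are shown as the 250 bases before the RefSeq start site (build GRCm38.p6), each read 5′ to 3′ on the strand of its gene. Il4 and Il13 are shown because they belong to the Th2 gene cluster and had reads in both libraries, with matches to the NFAT core GGAAA on either strand in capitals. NFAT is the factor that calcium signals from the T cell receptor bring into the nucleus.
Il4 (chr11:53618666-53618915, minus strand): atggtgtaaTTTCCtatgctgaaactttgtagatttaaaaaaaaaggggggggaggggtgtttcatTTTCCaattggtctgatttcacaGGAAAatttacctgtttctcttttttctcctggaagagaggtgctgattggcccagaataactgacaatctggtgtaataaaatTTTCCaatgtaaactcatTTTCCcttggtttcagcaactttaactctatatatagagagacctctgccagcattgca
Il13 (chr11:53634703-53634952, minus strand): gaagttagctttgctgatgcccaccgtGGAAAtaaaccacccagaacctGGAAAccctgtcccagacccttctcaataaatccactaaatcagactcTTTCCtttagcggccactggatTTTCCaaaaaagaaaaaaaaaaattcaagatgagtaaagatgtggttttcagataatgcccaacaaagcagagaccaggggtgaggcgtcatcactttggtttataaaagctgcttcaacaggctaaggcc
Il17a, Il17f and Il23r are the Th17 members that hold the motif AGGTCA. Il22, the other Th17 member, does not hold it and is not shown. Il17a had no read, while Il17f and Il23r had reads in both libraries. Capitals mark AGGTCA, a motif of nuclear receptors, on either strand.
Il17a (chr1:20730655-20730904, plus strand): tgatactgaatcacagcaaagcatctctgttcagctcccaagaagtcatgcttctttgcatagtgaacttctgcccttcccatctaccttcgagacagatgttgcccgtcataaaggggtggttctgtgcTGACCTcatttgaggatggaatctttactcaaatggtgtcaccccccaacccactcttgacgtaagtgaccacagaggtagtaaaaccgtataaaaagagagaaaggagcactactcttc
Il17f (chr1:20784271-20784520, minus strand): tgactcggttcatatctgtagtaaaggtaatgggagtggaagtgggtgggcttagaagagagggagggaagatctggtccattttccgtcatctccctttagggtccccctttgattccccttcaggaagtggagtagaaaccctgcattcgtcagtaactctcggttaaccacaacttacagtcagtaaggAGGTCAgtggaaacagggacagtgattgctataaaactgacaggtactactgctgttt
Il23r (chr6:67491856-67492105, minus strand): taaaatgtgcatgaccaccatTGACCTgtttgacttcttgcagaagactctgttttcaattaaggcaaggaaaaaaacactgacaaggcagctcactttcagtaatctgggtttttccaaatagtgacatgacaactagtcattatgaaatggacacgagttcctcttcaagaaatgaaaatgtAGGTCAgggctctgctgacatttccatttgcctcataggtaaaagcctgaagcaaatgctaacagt

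Promoters of all 10 members were found in the RefSeq table. AGGTCA was present in Il17a (120 to 115 bases before the start), in Il17f (58 to 53 bases before the start) and, with 2 matches, in Il23r, and in no other member. Of all 32851 promoters of the same length, 14.0% held it. GGAAA was present in 8 of 10 members, with 5 matches in Il4 and 4 in Il13, and in 55.6% of all promoters. The GATA core GATAA was present in 3 of 10 members, namely Il13, Il22 and Il1rl1, compared to 22.6% of all promoters. The T-box core GGTGTG, in the motif that T-bet binds, was present in 1 member, Il17rb, compared to 16.3%. These matches describe the letters of the window, and the motifs were chosen after the sequences were seen. The start site of Il17f in RefSeq lies inside the longer gene that GENCODE gives for it.

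Among the Th2 cytokines, Il13 was the one with clear expression in both libraries. Il13, which encodes a cytokine acting on epithelium and macrophages, lies on chromosome 11 from 53631324 to 53634702 (GRCm38, minus strand). It had a log2 value of 5.05 in the WT-labelled and 5.42 in the KO-labelled library, from 33 reads (95% Poisson interval 22.7 to 46.3) and 43 reads (31.1 to 57.9). The intervals overlapped widely. The ratio of the KO-labelled to the WT-labelled library was 1.30, with a 95% exact binomial (Clopper-Pearson) interval from 0.807 to 2.11. This and all other intervals hold counting error only, since reads without molecular identifiers are not independent molecules.

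Il4, which encodes the cytokine that drives Th2 differentiation, lies 12.7 kb away from Il13 (chromosome 11, 53602982 to 53618669, minus strand). It had 1 read in the WT-labelled library and 9 reads in the KO-labelled library. On the deposited scale these were log2 values of 0.94 and 3.28. The ratio of reads was 8.98, with an interval from 1.24 to 394. The interval leaves out 1, but it treats reads as independent molecules, so that the direction is not established. Of genes with 4 to 15 reads, as Il4, 26.7% were at least 2-fold higher in the KO-labelled library. The size was nearly undetermined, because a single read stood in the WT-labelled library.

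Il5, which encodes the eosinophil growth and survival factor, lies on the other side of Rad50 in the same cluster (chromosome 11, 53720794 to 53725106, plus strand). It had 0 reads in the WT-labelled and 3 reads in the KO-labelled library, log2 values of 0 and 1.97. Both are at or under the floor of 3 reads, so no fold is given. Of the 100-base windows of its transcript, 15.4% also occur in the overlapping gene Gm12214, which lies on the opposite strand.

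The genes between and beside these cytokines had similar values in both libraries. Rad50, which encodes a DNA repair protein and lies between Il13 and Il5, had 521 and 599 reads in the WT-labelled and KO-labelled library (log2 difference 0.20). Kif3a, a kinesin gene on the other side of Il4, had 323 and 314 reads (log2 difference -0.04). The differences of Il4 and Il13 between the libraries were 2.33 and 0.37 on the deposited log2 scale.

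Il9 (chromosome 13, 56479277 to 56482246), the gene of the mast cell growth factor IL-9, had 0 reads in either library. The Poisson interval of the expected count reaches 3.69 reads in each library. Its neighbours Slc25a48 and Fbxl21 were also at 0 in both libraries. The receptor gene Il9r had 49 reads in the WT-labelled and 89 reads in the KO-labelled library.

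Of the Th17 cytokines, Il17a was not detected and Il17f was. Il17a (chromosome 1, 20730905 to 20734496, plus strand), the signature Th17 cytokine, had 0 reads in both libraries, with a Poisson interval up to 3.69 reads. Il17f (chromosome 1, 20777146 to 20790617, minus strand), which encodes its closest relative, had 3 reads in the WT-labelled and 13 reads in the KO-labelled library. The ratio was 4.33 with an interval from 1.19 to 23.7, and the deposited log2 values were 1.95 and 3.76. The 2 genes lie 42.7 kb apart. No 100-base window of either transcript occurs in a transcript of another gene, so that no read of that length matches both genes without a mismatch.

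Il22, which encodes a cytokine acting on epithelial barriers, was the member with fewer reads in the KO-labelled library among the Th17 cytokines. It had 10 reads in the WT-labelled and 4 reads in the KO-labelled library, and log2 values of 3.42 and 2.28. The ratio was 0.399 with an interval from 0.0914 to 1.38, which includes 1. Il22 (chromosome 10, 118204942 to 118210047) is uncertain, because its transcript shares 97.4% of aligned bases with the neighbouring copy Iltifb. Of its 100-base windows, 20.4% are identical in Iltifb, and alignments to several places were counted. Iltifb had 5 reads in the WT-labelled and 0 reads in the KO-labelled library. Summed over both copies, 15 and 4 counts gave a ratio of 0.266 with an interval from 0.0643 to 0.836, where a read that matches both copies may have been counted in each.

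**Figure D1:**
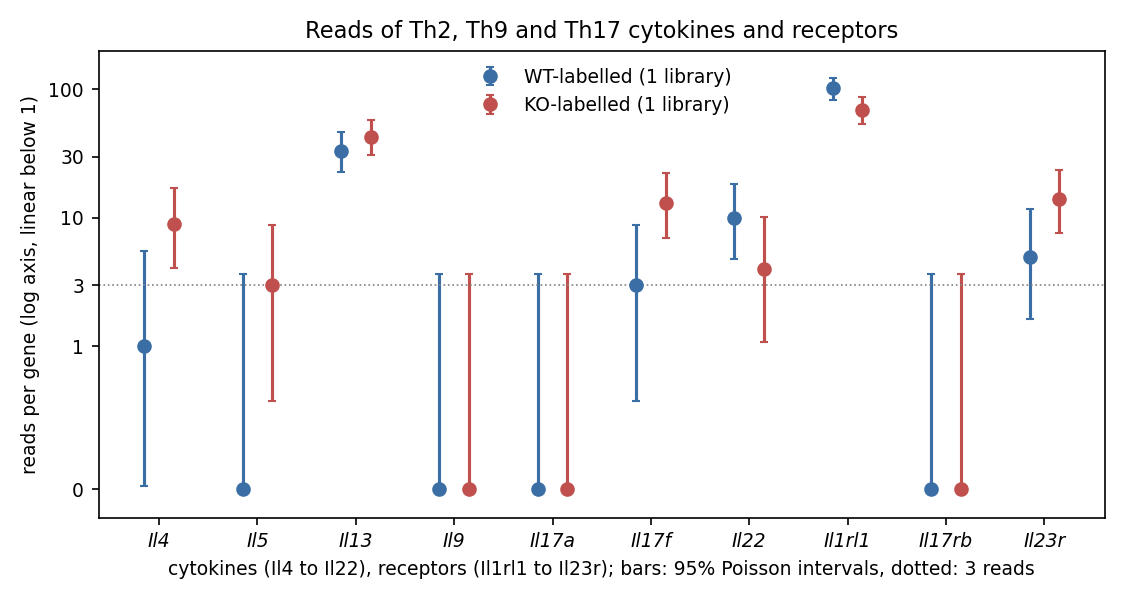
Reads of each member (vertical axis, log scale with a linear part below 1) in the WT-labelled and the KO-labelled library, 1 library each, with 95% Poisson intervals and a dotted line at 3 reads. Il1rl1 (102 and 69 reads) and Il13 (33 and 43 reads) stand above the others, and Il9, Il17a and Il17rb are at 0 in both.

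Of the receptors, Il1rl1 had the most reads of all members. It encodes ST2, the receptor of the alarmin IL-33, which is found on Th2 cells, regulatory T cells, mast cells, basophils and group 2 innate lymphoid cells (ILC2). Il1rl1 (chromosome 1, 40429570 to 40465415, plus strand) had 102 reads (83.2 to 124) in the WT-labelled and 69 reads (53.7 to 87.3) in the KO-labelled library. The log2 values were 6.64 and 6.08. The ratio was 0.675 with an interval from 0.490 to 0.926, lower in the KO-labelled library by less than 2-fold. Its neighbour Il18r1, which encodes the IL-18 receptor and starts 0.137 kb behind it, had 1249 and 1929 reads, a log2 difference of 0.62 in the opposite direction. Il1rap, the coreceptor of ST2, had 367 and 404 reads, and Il33 had 3 reads in each library.

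Other cells that carry ST2 were looked for by their markers. Of 11 mast cell, basophil and ILC2 markers, 3 (Mcpt4, Ms4a2 and Tpsb2) were at 0 in both libraries. In the KO-labelled library, 6 of the 11 were at least 2-fold lower and 0 were at least 2-fold higher, where 5.81% and 4.7% of all genes were. Of the 6, Cpa3 (11 and 5 reads), Fcer1a (4 and 0 reads) and Cma1 (7 and 0 reads) had few reads. The basophil proteases Prss34 and Mcpt8 had 200 and 34 reads and 85 and 14 reads, in the WT-labelled and the KO-labelled library. Gata2, also among the 6, had 232 and 67 reads. The normalized counts of the list summed to 1032 in the WT-labelled and 985 in the KO-labelled library, with the most reads in Hdc (404 and 710 reads). Of 6 regulatory T cell markers, 0 differed by 2-fold, where 10.5% of all genes did. By any amount, 4 were higher and 2 lower in the KO-labelled library. Their normalized counts summed to 94580 and 108104, with the most reads in Il2ra (59955 and 71222 reads). Foxp3 had 2022 and 3347 reads and Ikzf2 had 167 and 315 reads. The isolation of naïve cells given above selects against these cells, and their part in the reads of Il1rl1 and Il4 was not tested.

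Il17rb (chromosome 14, 29996135 to 30008896), which encodes the receptor subunit for IL-25, had 0 reads in both libraries. Il17ra, the subunit it pairs with, had 7158 and 6480 reads, and Il25 had 0 reads in both.

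Il23r (chromosome 6, 67422932 to 67491855, minus strand), which encodes the specific subunit of the IL-23 receptor, had 5 reads in the WT-labelled and 14 reads in the KO-labelled library, with log2 values of 2.54 and 3.86. The ratio of 2.80 had an interval from 0.951 to 9.92, which includes 1. Its neighbour Il12rb2, the signalling subunit of the IL-12 receptor, had 15788 and 21529 reads. Both share the partner Il12rb1, which had 5284 and 4107 reads. Per kb of transcript, Il12rb2 stood at 5266 and 7181 reads and Il23r at 2.01 and 5.63 reads, so that in both libraries the IL-12 receptor subunit was far above its IL-23 counterpart.

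**Figure D2:**
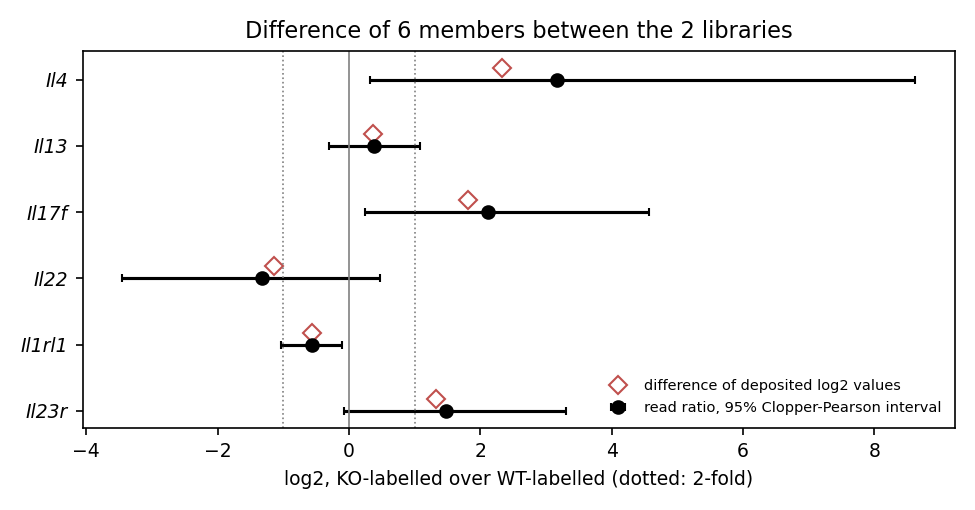
Log2 ratio of reads in the KO-labelled to the WT-labelled library (horizontal axis) for the 6 members with reads in both, with 95% Clopper-Pearson intervals, and the difference of the deposited log2 values as open diamonds. The intervals of Il4, Il17f and Il1rl1 leave out 0, and those of Il13, Il22 and Il23r include it.

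To compare levels between genes, reads were divided by the length of the longest annotated transcript. In the WT-labelled library, Il13 was highest with 27.4 reads per kb, followed by Il1rl1 with 19.2, Il22 with 9.01, Il17f with 2.55, Il23r with 2.01 and Il4 with 1.65. In the KO-labelled library, Il13 was again highest with 35.7 reads per kb, followed by Il4 with 14.9, Il1rl1 with 13.0, Il17f with 11.0, Il23r with 5.63, Il22 with 3.60 and Il5 with 1.95. The ratio per kb of a gene to the next one in the order had an interval above 1 for Il1rl1 over Il22 in the WT-labelled library (2.14, from 1.12 to 4.59) and for Il13 over Il4 in the KO-labelled library (2.40, from 1.15 to 5.60). For the other neighbours in the order, the interval of this ratio included 1. The place of Il1rl1 depends on the transcript, since with its shortest coding transcript it stood at 272 and 184 reads per kb, above Il13 in both libraries. Ifng stood at 2879 and 7218 reads per kb, and every member was below it in both libraries.

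The differences of the members were then set beside those of all genes. At the 2-fold line on the deposited log2 scale, 4 members were higher in the KO-labelled library (Il4, Il5, Il17f and Il23r), where 4.7% of all genes were. Il22 was the 1 member lower by at least 2-fold, where 5.81% of all genes were, and 10.5% of all genes were past the line in either direction. Genes with few reads passed the line much more often. Of the 1574 genes whose higher count was 4 to 15 reads, 26.7% were higher and 33% were lower, 59.7% in all, and Il4, Il17f, Il22 and Il23r belong here. Of the 1299 genes with 1 to 3 reads, as Il5, 19.3% were higher and 20.7% lower, 40% in all. Il13 and Il1rl1 were within 2-fold, in the range of 16 to 127 reads, where 12.3% of 2747 genes were higher and 16.2% lower, 28.6% in all. Of the 10528 genes with more reads, among them Ifng, 1.3% were higher and 1.75% lower, 3.05% in all. The 5 members with the fewest reads above 0 are thus those past 2-fold.

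**Figure D3:**
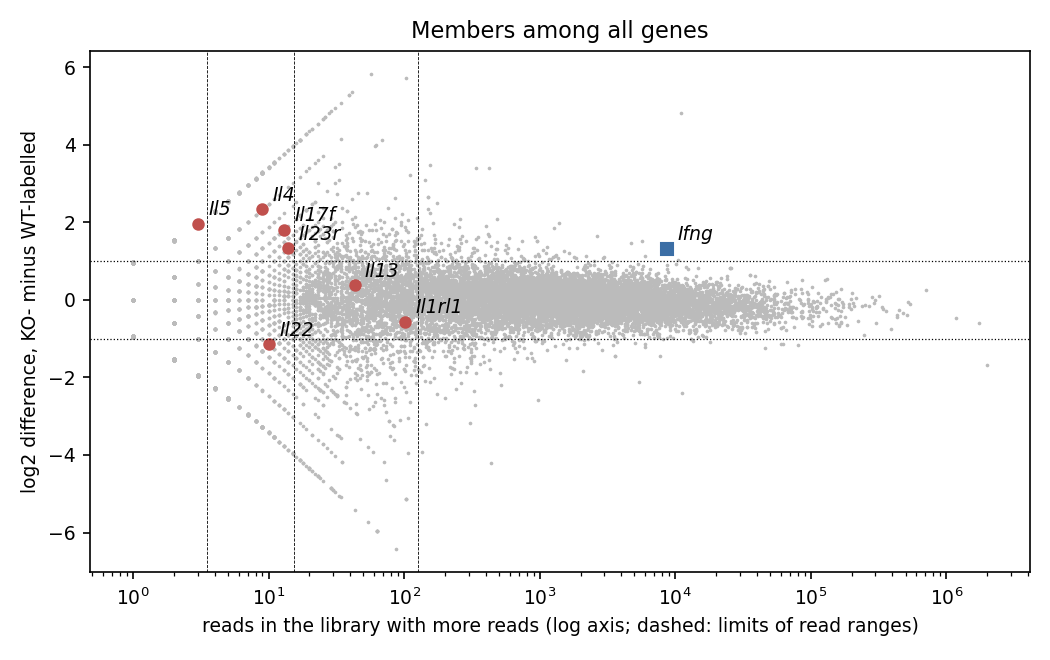
Log2 difference of the KO-labelled minus the WT-labelled library (vertical axis) against the reads in the library with more reads (log axis) for all genes above 0 in either library (grey), the 7 members above 0 (red) and Ifng (blue square). The members lie at low read numbers, where the grey points spread widely past the dotted 2-fold lines, while Ifng lies above the narrow band of well-expressed genes.

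As a relative measure at the level of RNA, reads of each cytokine were given per 1000 reads of Ifng. This value also moves with Ifng itself and does not measure the share of cells of another lineage. The Th2 cytokines Il4, Il5 and Il13 summed to 34 reads in the WT-labelled and 55 reads in the KO-labelled library, which is 9.78 (95% Clopper-Pearson interval 6.76 to 13.7) and 6.31 (4.75 to 8.22) per 1000 Ifng reads. The ratio of the KO-labelled to the WT-labelled library was 0.645 with an interval from 0.412 to 1.02. The Th17 cytokines Il17a, Il17f and Il22 summed to 13 and 17 reads, 3.74 (1.99 to 6.40) and 1.95 (1.14 to 3.12) per 1000. For these the ratio was 0.522 with an interval from 0.238 to 1.17. Both intervals include 1, so that for either group alone the difference relative to Ifng is within counting error.

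Over all 7 cytokines, 47 and 72 reads were 13.5 (9.91 to 18) and 8.26 (6.46 to 10.4) per 1000 Ifng reads, a ratio of 0.611 with an interval from 0.416 to 0.904. Per kb of transcript, the 7 cytokines stood at 14.1 and 9.30 for 1000 of Ifng. Their own sum was higher in the KO-labelled library, by a ratio of 1.53 (1.04 to 2.26), while Ifng was higher by a ratio of 2.50 (2.41 to 2.60). The lower relative value therefore comes with more reads of the cytokines and still more of Ifng. Single cytokines did not all follow the sum. Il13 was 9.49 and 4.93 per 1000 Ifng reads, with a ratio of 0.520 (0.322 to 0.846), and Il22 was 2.88 and 0.459, with a ratio of 0.160 (0.0365 to 0.554). For Il4 the ratio was 3.59 (0.497 to 157) and for Il17f 1.73 (0.475 to 9.46), where the intervals include 1.

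**Figure D4:**
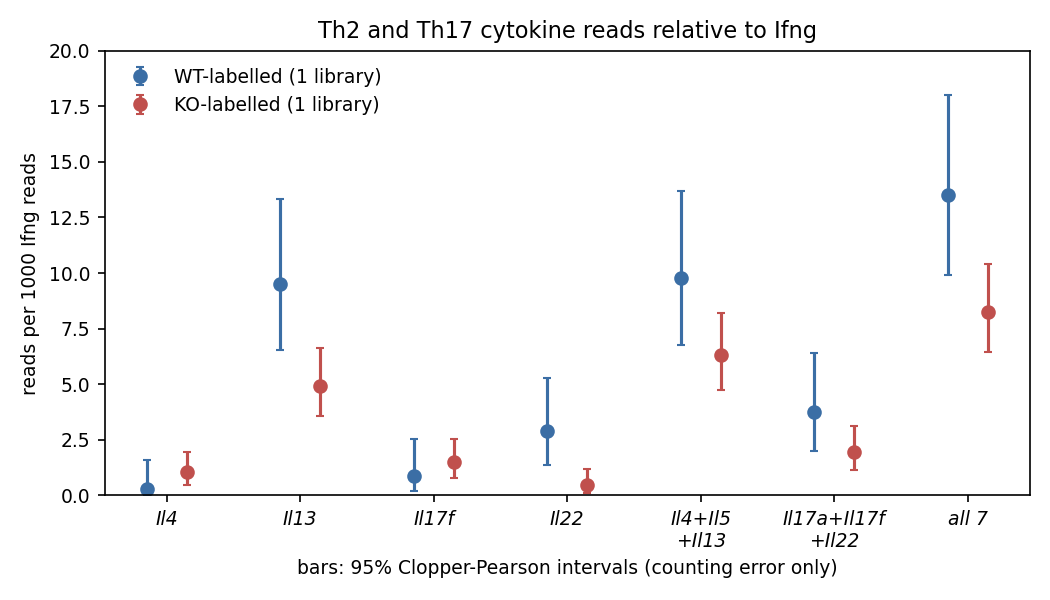
Reads of single cytokines and of their sums per 1000 Ifng reads (vertical axis) in the WT-labelled and KO-labelled library, 1 library each, with 95% Clopper-Pearson intervals. The sum of all 7 is 13.5 and 8.26, and most of it is Il13 in both libraries.

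Of 36 other genes of the Th2 and Th9 pathway, 27 had at least 10 reads in at least 1 library. By 2-fold, 5 of the 36 were higher and 2 were lower in the KO-labelled library, with a median log2 difference of 0 over the list and 0 over all genes. Of those with 10 reads, 4 were higher and 1 was lower, where 4.3% and 5.78% of all such genes were, 10.1% in either direction. Gata3, the master regulator of Th2 cells, had 3715 and 2391 reads in the WT-labelled and KO-labelled library, a log2 difference of -0.64 that is within 2-fold.

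The 4 higher genes include 3 cytokines. Il10, the gene of an anti-inflammatory cytokine that Th1 cells also make, had 23 and 58 reads. Il3, which encodes a growth factor of basophils and mast cells, had 67 and 161 reads. Il24, a relative of Il10, had 65 and 166 reads. The fourth, Bhlhe41, encodes a transcription factor of Th2 cells and had 93 and 247 reads. Their log2 differences were between 1.25 and 1.40, and each interval of the read ratio was above 1. The lower gene was Csf2rb, the common beta chain of the IL-3, IL-5 and GM-CSF receptors, with 241 reads in the WT-labelled and 48 reads in the KO-labelled library (log2 difference -2.31). Basophils also carry this chain. Of the basophil and mast cell markers, Prss34, Mcpt8 and Gata2 (232 and 67 reads) were at least 2-fold lower too. Hdc (404 and 710 reads) and Kit (121 and 187 reads) were higher by less than 2-fold. The sum of normalized counts was 1032 and 985, with the most reads in Hdc. The part of these cells in the reads of Csf2rb was not tested.

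Receptor chains for the Th2 cytokines were present in both libraries. Il4ra had 11629 and 8006 reads and Il2rg, the common gamma chain, had 54637 and 40259 reads. The other chains were sparse. Il13ra1 had 27 and 38 reads, Il13ra2, the decoy receptor that also binds Chi3l1, had 0 reads and 1 read, and Il5ra had 4 and 2 reads.

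Of 27 other Th17 pathway genes, 20 had at least 10 reads in at least 1 library. By 2-fold, 5 of the 27 were higher and 1 was lower in the KO-labelled library, where 4.7% and 5.81% of all genes were, and the median log2 difference was 0.38 over the list and 0 over all genes. Of those with 10 reads, 3 were higher and 1 was lower, where 4.3% and 5.78% of all such genes were. Il17re, which encodes the receptor subunit for IL-17C, had 1 read in the WT-labelled and 34 reads in the KO-labelled library. Il23a, the specific subunit of IL-23, had 8 and 35 reads. Ccr6, the chemokine receptor of Th17 cells, had 42 and 124 reads. Il17d, a less known member of the IL-17 family, had 24 and 4 reads. Il17re and Il23a had under 10 reads in the WT-labelled library, as had Il17f and Il23r.

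Receptors for the Th17 cytokines were mostly low. Il17rc had 1 read in the WT-labelled and 5 reads in the KO-labelled library, and Il22ra1 and Il22ra2 had 0 reads in both, whereas Il10rb, the shared chain of the IL-10 and IL-22 receptors, had 971 and 1360 reads.

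Gamma delta T cells make IL-17 and carry CCR6 and the IL-23 receptor. Of 10 markers of gamma delta T cells and NKT cells, 4 were listed in the tables, and the receptor genes Trdc and Tcrg-C1 were not analysed here. Their normalized counts summed to 37.7 in the WT-labelled and 111 in the KO-labelled library. Blk had 17 and 71 reads, Sox13 had 21 and 33 reads, 5830411N06Rik, a scavenger receptor gene of gamma delta T cells, had 0 and 11 reads, and Zbtb16, the defining factor of NKT cells, had 1 and 0 reads. Blk is also expressed in B cells, and the B cell marker Cd79a had 267 and 475 reads. By 2-fold, Blk and 5830411N06Rik were higher in the KO-labelled library, 2 of the 4 listed markers, and 0 were lower. Of all genes, 4.7% were higher and 5.81% lower. Of genes with 4 to 15 reads, as 5830411N06Rik, 26.7% were higher. The isolation selects against gamma delta T cells where they lack CD4. The part of gamma delta T cells and NKT cells in the reads of Il17f, Il23r, Il17re and Ccr6 was not tested.

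Of 19 Th1 genes, all had at least 10 reads, 1 was higher by 2-fold (Ifng) and 1 was lower (Cxcr3, the chemokine receptor of Th1 cells, with 273 and 116 reads). Of all genes with at least 10 reads in at least 1 library, 4.3% were higher and 5.78% lower. The median log2 difference was 0.05. The Th1 genes other than these differed by less than 2-fold, whereas the members with the lowest read numbers were past it in both directions.

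**Figure D5:**
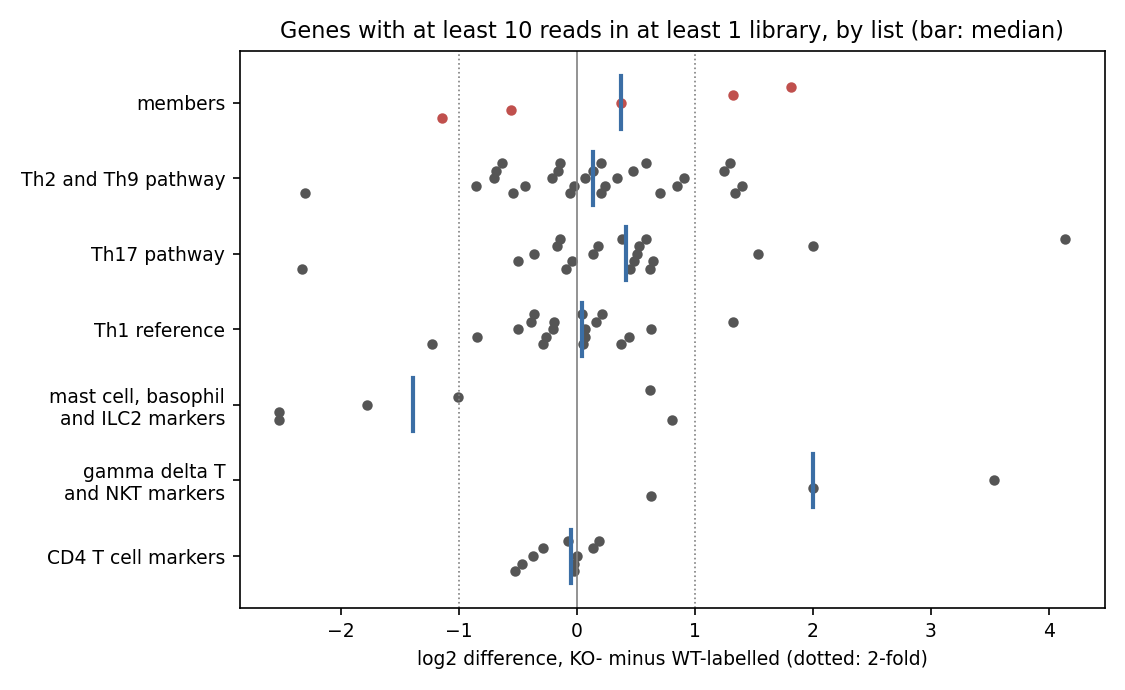
Log2 difference of the KO-labelled minus the WT-labelled library (horizontal axis) for genes with at least 10 reads in at least 1 library, 1 point per gene and 1 row per list, with the median of each list as a bar and dotted 2-fold lines. The medians of the Th1 and CD4 T cell rows are 0.05 and -0.05, the Th17 row reaches from Il17d at -2.33 to Il17re at 4.14, and the mast cell, basophil and ILC2 row has 4 of 6 genes below -1.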

How the data were processed

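RNA of 2 Th1 cultures, 1 labelled WT and 1 labelled Chi3l1 KO, was analysed. The authors made libraries from polyadenylated RNA, mapped paired reads with TopHat (mm10, per the submitters' processing notes) and counted unique and multiple alignments for edgeR, with a global normalization between samples. The version of TopHat and the annotation are not given in the sources used here. The deposited values were read as the log2 of normalized counts with 1 added, not scaled by length, a unit inferred from the values. After the log2 is undone, all values up to 100 reads lie within 0.2 of a whole multiple of a step (0.970 in the WT-labelled and 0.969 in the KO-labelled library), from which reads were rebuilt.

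Called genes differ by at least 2-fold on the deposited scale. Poisson and Clopper-Pearson intervals (95%) are exact. With 1 library per genotype there was no test. Members, gene lists and alternatives were chosen with earlier results of these data known. The text names all members, their partners and neighbours, genes that define a lineage, and up to 6 genes per pathway list past 2-fold with at least 10 reads. The genes named from the marker lists and the copy of Il22 were chosen after their values were seen. The alternatives tried were other scalings, pseudocounts, thresholds, read minimums and transcript lengths, whose effect is given at the end. Gene models were from GENCODE M21 (GRCm38, the build of mm10) and promoters from RefSeq. On simulated data, 200 of 200 genes changed by 4-fold were recovered among 24421 genes, and 100% of the counts up to 100 reads were rebuilt exactly. The changed genes were drawn from genes with more reads than any member has. Their recovery therefore does not show how well a change is found at the read numbers of the members. Python 3.11.15, numpy 2.4.6, pandas 2.3.3, scipy 1.17.1, matplotlib 3.10.9 and biopython 1.88 were used. Some genes of the lists are not reported here by name.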

Additional observations from a re-analysis of the deposited data

How the results depend on the processing

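The log2 differences of the members were recomputed with quantile normalization, median-ratio scaling, Actb as the scale, pseudocounts of 0.1 and 0.5, the trend with GC content removed and, chosen after seeing the data, scaling to the same sum of normalized counts. The 6 members with reads in both libraries kept their direction, with Il13 between 0.37 and 0.53, Il4 between 2.14 and 3.10, Il17f between 1.66 and 2.10, Il23r between 1.11 and 1.5, Il1rl1 between -0.75 and -0.39 and Il22 between -1.35 and -0.94. Scaling to Actb shifted the median of genes above 0 in both libraries by 0.12, and scaling to the sum by 0.17. The number of members past 2-fold depended on the read minimum. It was 4 higher, Il5 with 0 and 3 reads among them, and 1 lower as deposited. With at least 10 reads in at least 1 library 2 were higher, and with at least 10 reads in both 0 were higher and 0 lower, the only such members being Il13 and Il1rl1. Under quantile normalization and at 3-fold, 0 members were lower.

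Of the Th2 and Th9 pathway, 9 genes were higher and 7 lower at 1.5-fold, 0 were higher at 3-fold, and 1 was lower with 10 reads in 1 or in both libraries. Of the Th17 pathway, 9 were higher at 1.5-fold, 3 at 3-fold, 3 with 10 reads in at least 1 library and 1 with 10 reads in both, where 0 were lower. Of the Th1 genes, 2 were higher and 2 lower at 1.5-fold, and 0 either way at 3-fold. Other settings kept these counts within 1.5 times. Per kilobase, the ratios of cytokines to Ifng stayed within their intervals. The shortest coding transcript of Il1rl1 gave 272 and 184 reads per kb in the WT-labelled and KO-labelled library, which puts Il1rl1 above Il13 in both, since this transcript is much shorter than the longest. No paired analysis was possible because each genotype has 1 library. Depth limits the members, of which 5 of the 10 have under 10 reads in both libraries.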

Other observations

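Markers of other cells also had reads in both libraries. Of 6 CD8 T cell and NK cell markers, 2 were at least 2-fold higher in the KO-labelled library and 0 were lower, where 4.7% and 5.81% of all genes were, and their normalized counts summed to 839 in the WT-labelled and 859 in the KO-labelled library. The 2 higher genes were the NK cell receptors Klra8 (11 and 39 reads) and Ncr1 (0 and 6 reads). Ncr1 is in the range of 4 to 15 reads, where 26.7% of genes were 2-fold higher. Both chains of CD8 were within 2-fold, Cd8a with 288 and 437 reads and Cd8b1 with 549 and 396 reads.

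Of 14 myeloid and B cell markers, 13 were listed. By 2-fold, 2 of these were higher and 6 lower in the KO-labelled library, where 4.7% and 5.81% of all genes were. Cd14, Siglecf and S100a8 are in the range of 4 to 15 reads, where 33% of genes were lower. S100a9 is in the range of 1 to 3 reads, where 20.7% were. Lyz2 and Itgax are in the range of 16 to 127 reads, where 16.2% were. The normalized counts summed to 962 in the WT-labelled and 1578 in the KO-labelled library. The B cell genes Cd79a (267 and 475 reads) and Ms4a1 (61 and 120 reads) had more reads in the KO-labelled library, and so did Csf1r (97 and 174 reads) and Flt3 (18 and 68 reads), which encode receptors of myeloid cells and their precursors. Fewer reads were found for Lyz2 (34 and 2 reads), Cd14 (12 and 0 reads), Itgax (44 and 5 reads), Itgam (163 and 93 reads) and Siglecf (11 and 0 reads), the last a gene of eosinophils. S100a8 (5 and 0 reads) and S100a9 (3 and 0 reads), granulocyte genes, had few reads, and Adgre1, a macrophage gene, had 0 in both.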
